A study of Homo sapiens with 60 samples.

Results

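HT29 cells treated with a high dose of Sayeok-tang were compared with HT29 cells treated with the same dose of dried ginger, 6 of the 60 RNA-seq libraries of the series (3 per extract). The 6 were chosen by their labels alone. HT29 is a human colorectal adenocarcinoma cell line. Sayeok-tang is a traditional formula that combines aconite root, dried ginger and licorice, so one of its herbs was also tested alone. The formula was given as a water extract at 500 µg/mL and dried ginger (Zingiberis Rhizoma) as a 70% ethanol extract at 500 µg/mL, each for 24 h. The sources used here do not give the share of ginger in the formula's extract.

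The same extracts at 100 µg/mL and 20 µg/mL (3 libraries per extract and dose) served as a check over dose. Bojungikgi-tang, another formula in water (2 libraries), and fresh ginger in 70% ethanol (3 libraries), both at 500 µg/mL, served as a second pair of a formula and a ginger extract. Vehicle cells (3 libraries) received DMSO, at 0.1% in the labels and 2% in the series text. Their libraries carry sample codes of set C1, which no extract carries. A difference from vehicle therefore cannot be told apart from a difference between code sets. The formulas carry sample codes of set 8 and the ginger extracts those of set 9. A difference of the same size at every dose therefore cannot be told apart from a difference between the water and ethanol solvents or between the code sets, whereas a change with dose within an extract stays within 1 solvent and 1 code set. All groups are 1 cell line, and the labels do not say whether the replicates were separate cultures. The p-values therefore measure the spread among replicate libraries, which may be technical. That spread was estimated together over 54 libraries in 19 groups, which include other extracts.

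The 6 libraries held 18349085 to 25574239 counts and 21446 to 22275 genes with a count, so that 1 CPM, the unit of level scaled to library size, stood for 18 to 26 counts. All 12 colon epithelial markers were above 1 CPM in at least 1 library, CDX1 at 1.17 to 1.36 CPM with Sayeok-tang and 0.473 to 0.977 CPM with dried ginger, and their summed level was 11139 to 11963 CPM with Sayeok-tang and 10995 to 11442 CPM with dried ginger. Fibroblast and endothelial markers were near 0. Summed over each list they reached at most 2.81 and 3.44 CPM, and 5 of 10 and 3 of 8 of them had no count in the 6 libraries. Of 10 leukocyte markers 3 had no count, and their sum of 1738 to 1836 CPM against 1675 to 1783 CPM came almost wholly from LYZ, the lysozyme gene, which intestinal epithelium also transcribes. None of the 6 libraries stood apart, by over 10 median absolute deviations, in its share of mitochondrial or ribosomal protein counts. The largest deviation, 3.47, was that of Sayeok-tang replicate 1. Its mitochondrial share was 5.94%, against 7.53% and 7.12% in replicates 2 and 3.

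Gut epithelial cells answer microbial products and inflammatory signals through NF-kB, a family of transcription factors that turns on chemokines, which call in neutrophils and lymphocytes, and antimicrobial proteins. They answer reactive chemicals through NRF2, which turns on aldo-keto reductases, glutathione synthesis and efflux pumps. A shortage of amino acids or stress in the endoplasmic reticulum acts through ATF4, in the integrated stress response, on amino acid synthesis and transport genes. The 3 chemokine promoters and the ASNS promoter shown here stand for the 2 kinds of difference that the results turn on, one present at every dose and one that appeared at the high dose. They are taken from RefSeq on GRCh38.p14, each from 250 bases before to 50 bases after the start of transcription. Capitals mark GGGANNTTC, part of a form of the NF-kB binding site, and TGATGNAA, the element bound by ATF4 with a C/EBP partner.
CXCL1, chr4:73869143-73869442, plus strand: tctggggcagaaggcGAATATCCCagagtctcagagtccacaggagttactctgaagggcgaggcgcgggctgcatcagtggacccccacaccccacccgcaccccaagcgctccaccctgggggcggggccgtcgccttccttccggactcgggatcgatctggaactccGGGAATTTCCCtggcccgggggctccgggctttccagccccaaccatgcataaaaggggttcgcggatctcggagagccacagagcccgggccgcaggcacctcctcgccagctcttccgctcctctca
CXCL2, chr4:74099146-74099445, minus strand: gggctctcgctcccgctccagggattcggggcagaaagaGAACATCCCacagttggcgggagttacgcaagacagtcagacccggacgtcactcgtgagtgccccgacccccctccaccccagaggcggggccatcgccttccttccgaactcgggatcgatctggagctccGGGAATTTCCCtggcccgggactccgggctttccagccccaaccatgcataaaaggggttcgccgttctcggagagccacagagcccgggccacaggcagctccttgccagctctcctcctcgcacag
CXCL3, chr4:74038640-74038939, minus strand: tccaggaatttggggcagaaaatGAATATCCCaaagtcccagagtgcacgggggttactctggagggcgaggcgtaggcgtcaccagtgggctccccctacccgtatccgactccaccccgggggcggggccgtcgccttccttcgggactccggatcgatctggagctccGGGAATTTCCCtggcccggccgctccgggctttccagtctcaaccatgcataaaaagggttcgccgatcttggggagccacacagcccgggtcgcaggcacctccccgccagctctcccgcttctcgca
ASNS, chr7:97872359-97872658, minus strand: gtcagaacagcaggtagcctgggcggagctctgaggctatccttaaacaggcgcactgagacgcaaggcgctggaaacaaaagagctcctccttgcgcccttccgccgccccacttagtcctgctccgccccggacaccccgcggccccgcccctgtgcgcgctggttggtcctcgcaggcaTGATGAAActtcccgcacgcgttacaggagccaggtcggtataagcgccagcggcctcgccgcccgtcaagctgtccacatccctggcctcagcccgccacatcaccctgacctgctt
Both strands were searched, and the 2 motifs share no window of those shown. The letters GGGANNTTC were chosen after the chemokine windows had been seen. They occurred in the windows of 8 of the 11 tested chemokine and cytokine genes that have one and in 4.18% of all 35116 windows. The 8 were CXCL1, CXCL2, CXCL3, CXCL5 and CXCL6, and CXCL10, CXCL11 and IL32. Of these the last named 3 did not pass the test between the extracts at the high dose. CXCL8 and CCL20, which did pass it, were not among the 8. In CXCL1 and CXCL3 a match began 79 bases before the start, and in CXCL2 78 bases before it, each overlapped by a match on the other strand, and each of the 3 windows held 1 more match on the other strand farther upstream. TGATGNAA occurred in the windows of 5 of 19 tested genes of the integrated stress response and in 3.62% of all windows, and in ASNS it began 68 bases before the start.

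At 500 µg/mL, 396 of 16763 genes differed between the extracts, which is 2.36% of those tested (edgeR quasi-likelihood test, adjusted p below 0.05). With Sayeok-tang 130 genes were higher (0.776%) and 266 were lower (1.59%), and 27 in each direction differed by over 2-fold. In 394 of the 396 every library of one extract lay beyond every library of the other, as they did for 23.6% of all genes tested. The count was 1148 in a fit without vehicle replicate 1, Pinelliae Tuber high-dose replicate 2 and Scutellariae Radix low-dose replicate 3, libraries of other groups that stand apart in mitochondrial or ribosomal share, and 1135 in a fit of the 6 libraries alone.

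The same contrast gave 37 genes at 100 µg/mL and 19 genes at 20 µg/mL, all of them higher with Sayeok-tang. At 100 µg/mL the count was 23 without Sayeok-tang medium-dose replicate 1. Of the 19 genes called at the low dose, 15 were also called at the high dose (78.9% of the 19, 11.5% of the 130). In the edgeR test over the 54 libraries no gene was called lower with Sayeok-tang at the medium or the low dose. Unadjusted p-values below 0.05 were found for 329 lower genes at the medium dose and 158 at the low dose. DESeq2 called 1 lower gene at each of these doses. Other fits did call lower genes. At the medium dose there were 53 without the low-count filter, 18 without the 3 libraries that stand apart, 1 in the 6 libraries alone, and 6 and 2 without dried ginger replicate 1 and 2. There were 34 at the low dose without the filter and 11 in the 6 libraries alone. The difference between the high-dose and the low-dose contrast passed the test for 110 genes (0.656%), 20 with a more positive contrast at the high dose and 90 with a more negative one. From the low to the high dose 64 genes changed with Sayeok-tang (0.382%, and 19 to 27 genes when any 1 of those 6 libraries was left out) and 727 with dried ginger (4.34%). Without the 3 libraries that stand apart these counts were 361 and 1795, and in the compared libraries alone 519 and 1832. Of the 266 genes lower with Sayeok-tang at the high dose, 196 (73.7%) had risen with dose in dried ginger, where 385 of all genes (2.3%) rose. Of the 130 higher ones 88 (67.7%) had fallen with dose in dried ginger, where 342 of all genes (2.04%) fell. The dried ginger libraries at the high dose enter both contrasts. Both extracts were also compared with the same vehicle libraries, which are of another code set than either. Against these libraries 477 genes differed with Sayeok-tang at the high dose (2.85%, with 1.26% higher and 1.58% lower) and 2199 with dried ginger (13.1%, with 6.79% higher and 6.33% lower). The first count was 140 without vehicle replicate 1, 232 without vehicle replicate 2 and 191 to 206 without any 1 of the Sayeok-tang replicates, and the second was 935 without vehicle replicate 1 and 1332 without dried ginger replicate 2.

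**Figure D1:**
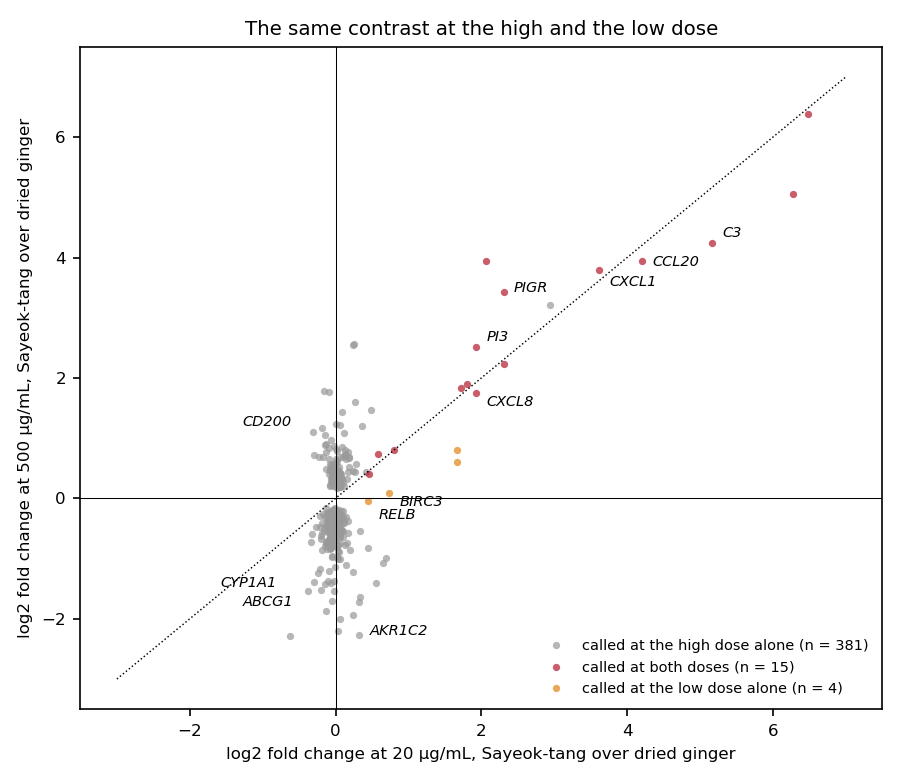
Log2 fold change of Sayeok-tang over dried ginger at 20 µg/mL (horizontal axis) and at 500 µg/mL (vertical axis) for the 400 genes called at either dose. Each point is a gene, the dotted line marks equal values, and the 15 genes called at both doses lie in the upper right, while most of the 381 genes called at the high dose alone lie near 0 on the horizontal axis. Fitted values of genes with no count in dried ginger, such as SAA1, depend on the prior count of the fit.

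Genes that differed at every dose were mainly chemokines and epithelial defence genes. Of 21 NF-kB chemokines and cytokines 14 were tested, and 7 were higher with Sayeok-tang at the high dose (0.776% of all genes were), none lower. The median log2 fold change of the 14 was 1.36 against 0.00 for all genes. Of the 14, CXCL5 and CXCL10 passed the filter on low counts only with the formula libraries included, and among the other 12 the count was 6 and the median also 1.36. The members called were CXCL1, CXCL2, CXCL3, CXCL5, CXCL6, CXCL8 and CCL20. All 7 were also called at the medium and the low dose, where CSF1 made the count 8 (background 0.221% and 0.113% of genes higher). The counts at these doses also include CXCL5, which passed the filter only with the formula libraries.

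CXCL1, a neutrophil chemokine, stood at 21.2, 19.3 and 22.6 CPM with Sayeok-tang and at 1.59, 1.29 and 1.64 CPM with dried ginger. Every formula library was far above every ginger library. The log2 fold change was 3.80 ± 0.20 (SE, n = 3 each, adjusted p = 4.8e-18, edgeR), with 4.04 ± 0.20 at 100 µg/mL and 3.61 ± 0.20 at 20 µg/mL. Vehicle cells, at 2.55, 0.926 and 1.10 CPM, lay around the ginger level. CXCL8, which encodes interleukin 8, stood at 28.4, 24.7 and 26.9 CPM with Sayeok-tang and at 7.56, 8.09 and 8.20 CPM with dried ginger. The groups did not overlap, and the log2 fold change was 1.74 ± 0.11 (SE, adjusted p = 2.6e-16, edgeR), against 1.93 ± 0.11 at the low dose. CXCL8 also rose with dose in dried ginger, by 0.52 ± 0.12 (adjusted p = 0.00289, edgeR), and its low-dose libraries lay between 5.49 and 5.64 CPM.

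CCL20, which attracts dendritic cells and lymphocytes through the receptor CCR6, stood at 4.73, 4.78 and 5.32 CPM with Sayeok-tang and at 0.215, 0.533 and 0.199 CPM with dried ginger. The lowest formula library was well above the highest ginger library, and the log2 fold change was 3.94 ± 0.27 (SE, adjusted p = 8.6e-15, edgeR). CXCL2, a close relative of CXCL1, stood at 1.56, 1.44 and 2.07 CPM with Sayeok-tang and at 0.301, 0.445 and 0.696 CPM with dried ginger. CXCL3, another relative, stood at 4.30, 3.89 and 3.91 CPM with the formula and at 1.12, 1.24 and 0.845 CPM with dried ginger. Neither overlapped between the extracts, and their log2 fold changes were 1.84 ± 0.32 and 1.90 ± 0.24 (adjusted p = 1.3e-04 and 2.9e-07, edgeR). CXCL1, CXCL2 and CXCL3 are similar in sequence, and the sources used here do not say how the counting divided reads between them.

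CXCL5, CSF1, SAA1 and RELB lie outside the rule for naming genes and were chosen after their values were seen. CXCL6, also a neutrophil chemokine, stood at 2.26, 2.64 and 2.93 CPM with Sayeok-tang and at 0.343, 0.0445 and 0.0994 CPM with dried ginger at the high dose. Its log2 fold change was 3.94 ± 0.36 at the high dose and 2.06 ± 0.28 at the low dose (adjusted p = 5.1e-11 and 1.3e-05, edgeR), and it fell by 1.53 ± 0.44 with dose in dried ginger. The difference between the contrasts at the 2 doses, 1.87 ± 0.50, did not pass the test (adjusted p = 0.0763, edgeR). CXCL5 had 10, 18 and 15 counts with Sayeok-tang and 0, 1 and 0 counts with dried ginger at the high dose. At the low dose dried ginger had no count of CXCL5, and the formula was at least 10.8-fold higher against a floor of 3 counts over the group. CSF1, a growth factor of macrophages, was higher at the low dose (log2 fold change 1.67 ± 0.27, adjusted p = 2.8e-04, edgeR) and stood at 0.81 ± 0.27 at the high dose, where it did not pass (adjusted p = 0.12, edgeR).

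**Figure D2:**
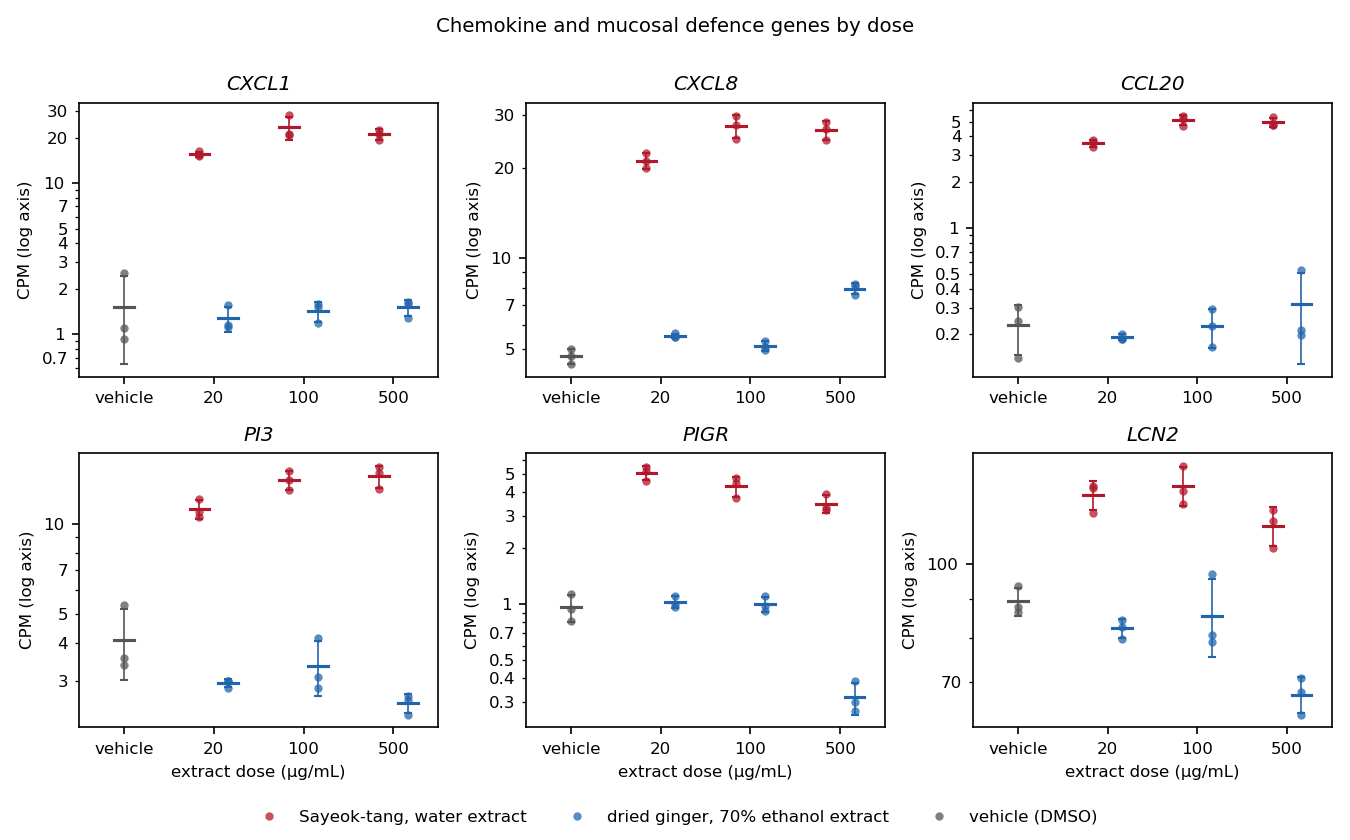
CPM (log axis) of 6 chemokine and defence genes in each library by dose, with Sayeok-tang in red, dried ginger in blue and vehicle in grey; bars give mean and SD of 3 libraries. Each Sayeok-tang library lies above each dried ginger library of its dose for all 6 genes, and PIGR is lowest in dried ginger at 500 µg/mL.

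Of 20 epithelial defence genes 13 were tested. SAA1, C3 and DUOX2 passed the filter on low counts only with the formula libraries included. Of the other 10 tested genes 4 were higher with Sayeok-tang at the high dose and 1 was lower, with a median log2 fold change of 0.67. Over all genes 0.776% were higher and 1.59% lower. PI3, PIGR, LCN2 and NOX1 were the 4, and SAA1 and C3 were called higher as well. PI3 encodes elafin, an inhibitor of neutrophil elastase. It stood at 13.0, 14.7 and 15.4 CPM with Sayeok-tang and at 2.66, 2.31 and 2.58 CPM with dried ginger, a log2 fold change of 2.51 ± 0.17 (SE, adjusted p = 1.0e-14, edgeR). The groups were far apart, and at the low dose the value was 1.93 ± 0.16. PIGR encodes the receptor that carries IgA across the epithelium. It stood at 3.22, 3.29 and 3.91 CPM with Sayeok-tang and at 0.386, 0.267 and 0.298 CPM with dried ginger (log2 fold change 3.43 ± 0.24, adjusted p = 3.5e-14, edgeR). Vehicle cells had 0.814 to 1.13 CPM, between the formula and the ginger libraries at the high dose, and PIGR fell by 1.68 ± 0.28 with dose in dried ginger (adjusted p = 3.8e-05, edgeR).

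LCN2, the iron-scavenging antimicrobial protein lipocalin 2, stood at 105, 118 and 114 CPM with Sayeok-tang and at 67.8, 63.3 and 70.7 CPM with dried ginger, a log2 fold change of 0.74 ± 0.13 (SE, adjusted p = 2.4e-04, edgeR). At the low dose it was 0.58 ± 0.13 with an adjusted p of 0.0489 (edgeR), and that call was lost with each of the 6 low-dose libraries left out in turn. C3, the central complement component, had 29, 39 and 49 counts with Sayeok-tang and 3, 1 and 2 counts with dried ginger (log2 fold change 4.24 ± 0.43, adjusted p = 1.6e-09, edgeR). SAA1, an acute phase protein, had 3, 9 and 16 counts with Sayeok-tang and none with dried ginger, at least 9.07-fold higher against a floor of 3 counts over the group. SAA1 and SAA2 are near-identical, so the count is uncertain. NOX1 was also higher and CEACAM6 lower, and both are described with the genes that changed with dose.

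The NF-kB subunits and feedback genes did not follow the chemokines in the contrast between the extracts at the high dose. All 20 were tested, and none was called in the edgeR test (3 members had an unadjusted p below 0.05, and DESeq2 called 0), with a median log2 fold change of 0.08, while 2 were called higher without the libraries that stand apart and in the 6 libraries alone. BIRC3, an inhibitor of cell death that NF-kB induces, stood at 9.99, 10.5 and 10.8 CPM with Sayeok-tang and at 9.36, 11.0 and 9.05 CPM with dried ginger at the high dose, where the groups overlapped. At the low dose it stood at 9.16, 9.13 and 9.07 CPM with the formula and at 4.93, 5.97 and 5.49 CPM with ginger. The log2 fold change was 0.74 ± 0.10 at the low dose (adjusted p = 5.3e-06, edgeR) and 0.08 ± 0.09 at the high dose, and the difference between them was -0.65 ± 0.13 (adjusted p = 0.00555, edgeR). BIRC3 rose with dose in dried ginger by 0.84 ± 0.10 (adjusted p = 2.0e-08, edgeR). RELB, an NF-kB subunit, was higher at the low dose (0.45 ± 0.10, adjusted p = 0.0488, edgeR) and stood at -0.04 ± 0.10 at the high dose. Of the 20 genes, 2 were higher with Sayeok-tang at the medium and 2 at the low dose (0.221% and 0.113% of all genes). Against vehicle, 5 were higher with Sayeok-tang at the high dose (1.26% of all genes) and 3 with dried ginger (6.79%), none lower. From the low to the high dose 4 rose in dried ginger (2.3%) and 0 with Sayeok-tang (0.0954%).

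The second pair of a formula and a ginger extract shares no library with the first. Bojungikgi-tang over fresh ginger at 500 µg/mL gave 51 genes (0.304%), 44 higher (0.262%) and 7 lower (0.0418%), and 29 without either of the Bojungikgi-tang libraries. Of the 44 higher genes 24 were among the 130 (54.5% and 18.5%), and of the 7 lower genes 6 were among the 266 (85.7% and 2.26%). The chemokine list again had 8 members higher, the 7 named above and CSF1. CXCL5, among these, passed the filter on low counts only with the formula libraries included, so its call is no separate support. Of 28 NRF2 targets 5 were lower with Bojungikgi-tang, with a median log2 fold change of -0.17, among them AKR1C2 (-0.70 ± 0.11, adjusted p = 6.6e-05, edgeR) and AKR1B10 (-0.60 ± 0.10, adjusted p = 2.5e-04, edgeR). CXCL1 stood at 28.8 and 28.7 CPM with Bojungikgi-tang and at 2.18, 1.91 and 2.23 CPM with fresh ginger, and its log2 fold change of 3.77 ± 0.20 (adjusted p = 3.3e-18, edgeR) was within 1 SE of that of the first pair. CCL20 stood at 6.76 and 6.81 CPM with Bojungikgi-tang and at 0.194, 0.288 and 0.515 CPM with fresh ginger (log2 fold change 4.32 ± 0.27, adjusted p = 5.1e-16, edgeR). This pair has the same 2 solvents and code sets as the first.

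Genes lower with Sayeok-tang at the high dose were mainly those that dried ginger raised with dose. NRF2 targets were the clearest group. All 28 were tested, 21 were lower with Sayeok-tang (1.59% of all genes were) and none higher, with a median log2 fold change of -0.50. The median was 0.01 and 0.00 at the medium and low dose, where edgeR called none (2 and 1 had an unadjusted p below 0.05, and DESeq2 called 0). For 12 of the 28 the difference between the high-dose and the low-dose contrast passed the test (0.537% of all genes did so in this direction). From the low to the high dose 26 of the 28 rose in dried ginger (2.3% of all genes rose), and 4 rose with Sayeok-tang (0.0954%). 

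AKR1C2 and AKR1C1 are aldo-keto reductases that reduce steroids and reactive carbonyls. AKR1C2 stood at 18.2, 15.6 and 18.1 CPM with Sayeok-tang and at 82.9, 88.2 and 80.3 CPM with dried ginger, a log2 fold change of -2.27 ± 0.09 (SE, adjusted p = 5.1e-22, edgeR). At the low dose the levels were 12.8, 11.0 and 11.2 CPM with the formula and 9.57, 9.20 and 9.14 CPM with ginger, a difference of 0.33 ± 0.10 that did not pass (adjusted p = 0.866, edgeR). AKR1C2 thus rose with dose in both extracts, by 0.57 ± 0.10 with Sayeok-tang and by 3.17 ± 0.10 with dried ginger (adjusted p = 0.00133 and 5.6e-27, edgeR). AKR1C1 stood at 23.5, 21.3 and 19.2 CPM with the formula and at 87.0, 84.8 and 84.4 CPM with ginger (4.01-fold lower, adjusted p = 6.1e-21, edgeR). These genes and AKR1C3 share reads with near-identical copies, so that the split between them is uncertain.

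AKR1B10, which reduces retinal and lipid aldehydes, stood at 151, 132 and 131 CPM with Sayeok-tang and at 333, 379 and 387 CPM with dried ginger (log2 fold change -1.41 ± 0.09, adjusted p = 8.9e-16, edgeR). The groups were far apart, and at the low dose they overlapped (-0.07 ± 0.09). ABCC2, an efflux pump for conjugated drugs and bilirubin, stood at 1.77, 1.59 and 1.49 CPM with the formula and at 5.50, 5.38 and 5.02 CPM with ginger (-1.72 ± 0.20, adjusted p = 6.0e-08, edgeR). HMOX1, which breaks down heme, stood at 9.83, 10.4 and 9.11 CPM with Sayeok-tang and at 18.0, 16.7 and 17.5 CPM with dried ginger (-0.83 ± 0.10, adjusted p = 6.0e-08, edgeR). In each of these 3 genes every ginger library at the high dose was above every formula library.

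For glutathione, SLC7A11, the cystine importer, stood at 205, 183 and 196 CPM with Sayeok-tang and at 359, 368 and 349 CPM with dried ginger (log2 fold change -0.88 ± 0.12, adjusted p = 1.3e-06, edgeR), and GCLC, the catalytic subunit of the rate-limiting enzyme, differed by -0.54 ± 0.07. GCLM, the other subunit, did not pass (-0.43 ± 0.13, adjusted p = 0.0933, edgeR). The thioredoxin system genes TXNRD1 and SRXN1 were lower by smaller steps (-0.39 and -0.31), as were the ferritin chains FTH1 and FTL (-0.55 and -0.54). Apart from GCLC, these genes were picked for their roles after their values were seen. NQO1, a quinone reductase, stood at 627, 635 and 614 CPM with the formula and at 909, 865 and 906 CPM with ginger (-0.51 ± 0.08, adjusted p = 1.5e-05, edgeR).

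**Figure D3:**
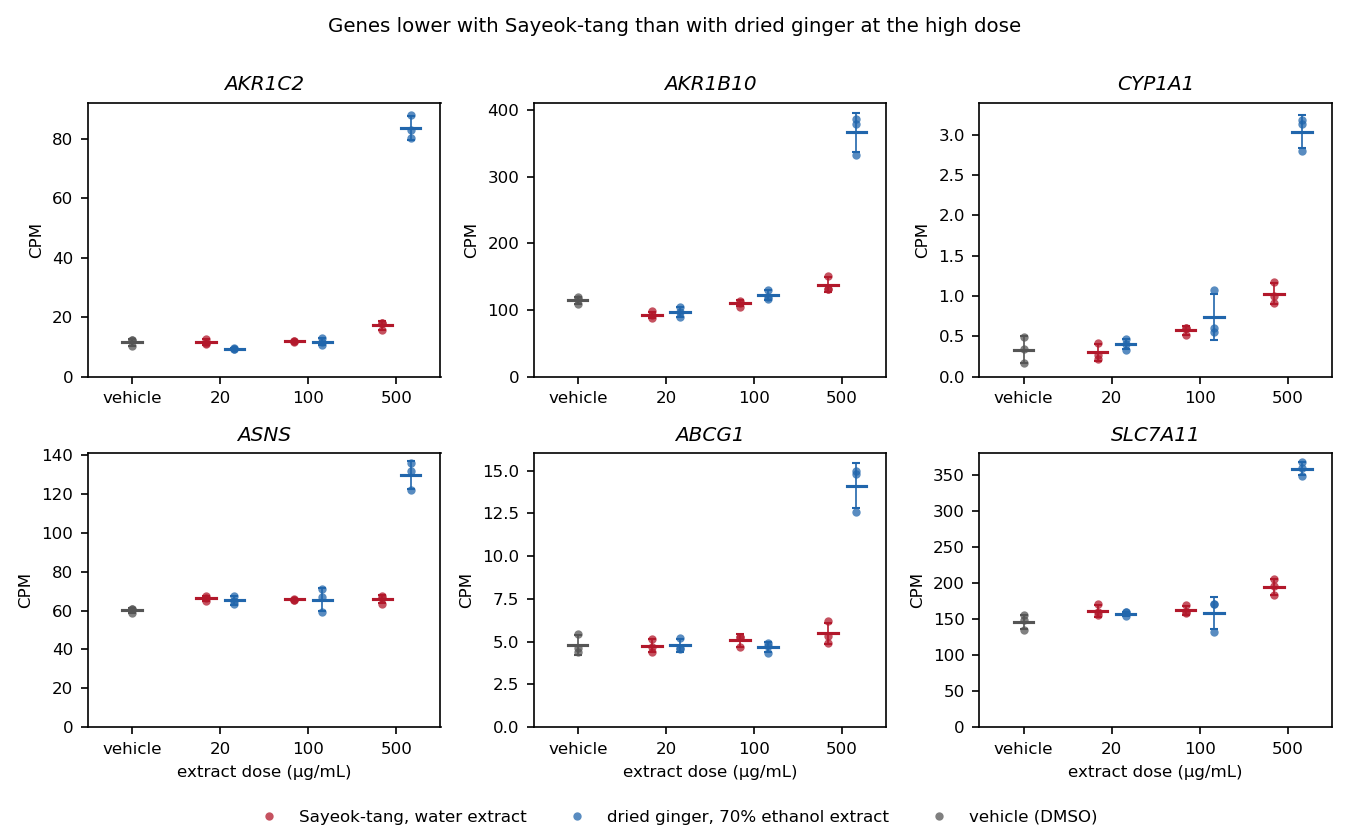
CPM of 6 genes in each library by dose, with Sayeok-tang in red, dried ginger in blue and vehicle in grey; bars give mean and SD of 3 libraries. At 500 µg/mL the 3 dried ginger libraries stand above the 3 Sayeok-tang libraries in all 6 genes, while at 20 µg/mL no gene shown passed the test between the extracts.

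The integrated stress response differed in the same direction. Of 23 tested genes 14 were lower with Sayeok-tang (1.59% of all genes were) and none higher at the high dose (median log2 fold change -0.40). For 7 the difference between the high and the low dose passed (0.537% of all genes did so in this direction). In dried ginger 12 of the 23 rose with dose (2.3% of all genes rose). With Sayeok-tang 0 were called as rising, where 0.0954% of all genes rose, and 2 had an unadjusted p below 0.05. Without any 1 of the 6 high-dose libraries 10 or 11 were lower. ASNS, which makes asparagine, stood at 66.6, 67.4 and 63.6 CPM with Sayeok-tang and at 132, 136 and 122 CPM with dried ginger (log2 fold change -0.98 ± 0.06, adjusted p = 2.6e-16, edgeR). With the formula ASNS stayed within 63.6 to 67.5 CPM at the low and high dose, and its change with dose was -0.01 ± 0.06.

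TRIB3, a pseudokinase that restrains AKT and ATF4, stood at 43.9, 47.9 and 45.7 CPM with Sayeok-tang and at 75.9, 70.1 and 70.4 CPM with dried ginger (-0.66 ± 0.07, adjusted p = 1.9e-08, edgeR). DDIT4, an inhibitor of mTORC1, stood at 17.7, 17.4 and 17.1 CPM with the formula and at 29.2, 31.2 and 29.3 CPM with ginger (-0.78 ± 0.10, adjusted p = 1.9e-07, edgeR). VLDLR, a lipoprotein receptor, stood at 4.08, 4.18 and 4.14 CPM with Sayeok-tang and at 8.41, 7.91 and 7.75 CPM with dried ginger (-0.96 ± 0.12, adjusted p = 2.2e-07, edgeR). None of these 3 overlapped between the extracts at the high dose. Of the transcription factors, ATF4 itself, whose activity is set mainly by translation, did not pass (-0.25 ± 0.09, adjusted p = 0.17, edgeR), and DDIT3, which encodes CHOP, was lower (-0.75 ± 0.13, adjusted p = 2.4e-04, edgeR). Both were picked for their role after their values were seen.

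Of 20 endoplasmic reticulum chaperones and unfolded protein response genes 3 were lower (1.59% of all genes were) and none higher. They were HERPUD1, which takes part in degrading misfolded proteins (-0.63 ± 0.06, adjusted p = 1.7e-09, edgeR), DNAJB9 (-0.46 ± 0.10) and HSPA5, the chaperone BiP (-0.22 ± 0.06). The call of HSPA5 was lost with each of the 6 libraries left out in turn. Of 25 autophagy and lysosome genes 3 were lower: SQSTM1, the cargo receptor p62, which is also an NRF2 target, at 430.0, 441 and 426 CPM with Sayeok-tang and 802, 757 and 713 CPM with dried ginger (-0.81 ± 0.07, adjusted p = 5.8e-11, edgeR), WIPI1 (-0.58 ± 0.11) and CTSD (-0.38 ± 0.08).

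**Figure D4:**
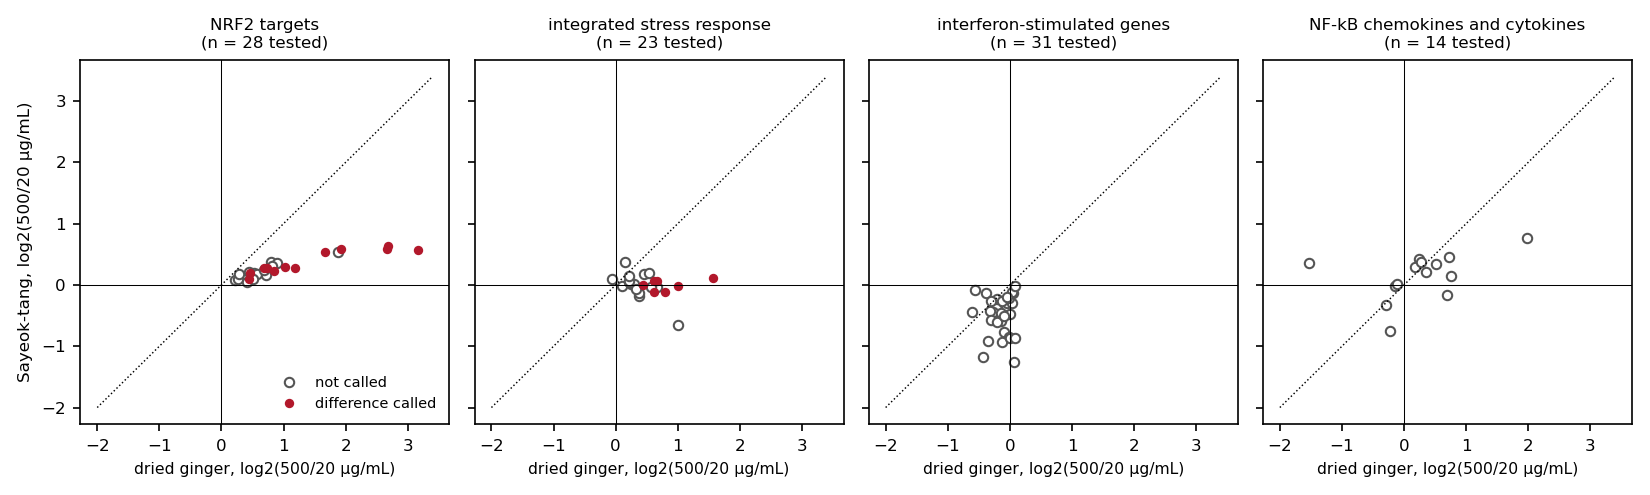
Log2 change from 20 to 500 µg/mL in dried ginger (horizontal axis) and in Sayeok-tang (vertical axis) for the tested members of 4 gene lists. Each point is a gene, the dotted line marks equal change, and filled points (12 NRF2 targets and 7 integrated stress response genes) are those whose 2 changes differed in the test.

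Among genes that respond to lipids and foreign chemicals, 4 of 10 LXR targets, 6 of 17 PPAR targets, 4 of 10 AhR targets and 8 of 21 drug metabolism genes were lower with Sayeok-tang at the high dose, and none was higher. Over all genes 1.59% were lower. The AhR targets called were CYP1A1, ALDH3A1, UGT1A6 and NQO1, and NQO1 is also counted among the NRF2 targets. The drug metabolism genes called include UGT1A1, UGT1A8 and UGT1A10, which share reads, and the similar CYP4F3 and CYP4F12, so these members are not independent. ABCG1, which exports cholesterol and is a classical LXR target, stood at 6.18, 5.33 and 4.93 CPM with Sayeok-tang and at 12.6, 15.0 and 14.8 CPM with dried ginger (log2 fold change -1.37 ± 0.12, adjusted p = 8.9e-12, edgeR). MYLIP, which targets the LDL receptor for degradation, differed by -0.43 ± 0.07 (adjusted p = 1.8e-05, edgeR). The call of NR1H3 (-0.32 ± 0.08), which encodes LXR alpha, was lost with 5 of the 6 libraries left out in turn, and the count of LXR targets was 2 without Sayeok-tang replicate 2 or any 1 of the dried ginger replicates. ABCA1, the other cholesterol exporter of the list, did not pass (-0.36 ± 0.17, adjusted p = 0.456, edgeR), and was picked for its role after its value was seen.

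CYP1A1, the classical target of the aryl hydrocarbon receptor AhR, rose with dose in both extracts. It stood at 0.913, 0.996 and 1.17 CPM with Sayeok-tang and at 3.18, 2.80 and 3.13 CPM with dried ginger at the high dose (log2 fold change -1.54 ± 0.22, adjusted p = 3.7e-06, edgeR). At the low dose it stood at 0.272, 0.221 and 0.423 CPM with the formula and at 0.408, 0.470 and 0.336 CPM with ginger, groups that overlapped. The rise with dose was 1.73 ± 0.34 with Sayeok-tang and 2.88 ± 0.25 with dried ginger (adjusted p = 0.00868 and 8.3e-12, edgeR), and the difference of these rises did not pass (-1.16 ± 0.48, adjusted p = 0.627, edgeR). CYP1B1 and TIPARP, targets of the same receptor, did not pass at the high dose (-0.25 ± 0.08 and -0.15 ± 0.08, adjusted p = 0.0735 and 0.602, edgeR). ALDH3A1, an aldehyde dehydrogenase that NRF2 and AhR both induce, stood at 28.1, 32.4 and 30.6 CPM with the formula and at 71.8, 69.8 and 68.3 CPM with ginger (-1.20 ± 0.10, adjusted p = 2.6e-12, edgeR). UGT1A6 (-0.29 ± 0.07) lost its call without Sayeok-tang replicate 2 or 3 or dried ginger replicate 1, and the UGT1A genes share exons and reads.

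Of the PPAR targets, FABP1, the liver fatty acid binding protein, stood at 2.26, 2.29 and 2.03 CPM with Sayeok-tang and at 4.16, 4.53 and 4.47 CPM with dried ginger (2.01-fold lower, adjusted p = 8.5e-05, edgeR). PLIN2, a lipid droplet coat protein, differed by -0.50 ± 0.09, and PDK4, which restrains pyruvate oxidation, by -0.45 ± 0.09. GPAT3, which starts triglyceride synthesis, stood at 18.5, 18.0 and 18.7 CPM with the formula and at 27.8, 30.1 and 31.1 CPM with ginger (-0.69 ± 0.08, adjusted p = 3.5e-08, edgeR). CYP4F3 and CYP4F12, fatty acid hydroxylases, differed by -1.38 ± 0.16 and -0.90 ± 0.14 (adjusted p = 3.4e-08 and 2.1e-05, edgeR). The CYP4F genes are similar in sequence.

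Among markers of the colon epithelium, 3 of 12 were lower with Sayeok-tang (1.59% of all genes were) and 9 did not pass. CEACAM5, the carcinoembryonic antigen, stood at 5.85, 5.98 and 6.57 CPM with the formula and at 12.4, 11.4 and 12.5 CPM with ginger (-0.98 ± 0.16, adjusted p = 3.5e-05, edgeR). CEACAM6, its relative, differed by -0.64 ± 0.07, and KRT20, a keratin of differentiated cells, by -0.44 ± 0.05. All 3 also passed the test of the difference between the high and the low dose. AHNAK2 and IGFL2-AS1 were 2 further genes among the 10 largest falls of called genes with an average log2 CPM above 2. AHNAK2 stood at 4.51, 5.03 and 5.67 CPM with Sayeok-tang and at 12.3, 10.7 and 9.99 CPM with dried ginger (-1.11 ± 0.15, adjusted p = 1.2e-06, edgeR). IGFL2-AS1 stood at 6.66, 5.03 and 5.67 CPM with the formula and at 15.6, 18.4 and 16.2 CPM with ginger (-1.54 ± 0.14, adjusted p = 5.1e-11, edgeR). It is an antisense RNA, and the sources used here do not say whether the counting used strand.

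Genes higher with Sayeok-tang at the high dose alone were mainly those that fell with dose in dried ginger. CD200, a surface protein that quiets myeloid cells, stood at 6.44, 7.17 and 7.51 CPM with Sayeok-tang and at 3.48, 3.02 and 3.38 CPM with dried ginger (log2 fold change 1.10 ± 0.10, adjusted p = 1.9e-11, edgeR). At the low dose it was at 7.32 to 8.98 CPM with the formula and at 9.90 to 10.7 CPM with ginger (-0.30 ± 0.08, adjusted p = 0.301, edgeR). It fell with dose by 1.63 ± 0.09 in dried ginger (adjusted p = 1.4e-17, edgeR), and the Sayeok-tang change of -0.22 ± 0.09 did not pass.

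NOX1, the superoxide-producing oxidase of the colon epithelium, stood at 18.4, 17.1 and 17.5 CPM with Sayeok-tang and at 7.47, 7.96 and 9.54 CPM with dried ginger (log2 fold change 1.09 ± 0.09, adjusted p = 6.3e-12, edgeR). The formula libraries lay near the vehicle range of 17.8 to 19.2 CPM. SLC14A1, a urea transporter, stood at 5.96, 5.43 and 4.73 CPM with the formula and at 2.32, 2.89 and 3.43 CPM with ginger (0.90 ± 0.12, adjusted p = 1.5e-06, edgeR). It fell with dose in both, by 0.62 ± 0.11 with Sayeok-tang and by 1.65 ± 0.11 with dried ginger (adjusted p = 0.00133 and 1.4e-14, edgeR). LINC00261, a long non-coding RNA, stood at 15.0, 13.7 and 14.3 CPM with Sayeok-tang and at 7.51, 6.80 and 7.66 CPM with dried ginger (0.97 ± 0.11, adjusted p = 6.0e-08, edgeR). PTPRO, a receptor tyrosine phosphatase, and SLC38A11, of an amino acid transporter family, differed by 0.86 ± 0.07 and 0.84 ± 0.14.

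**Figure D5:**
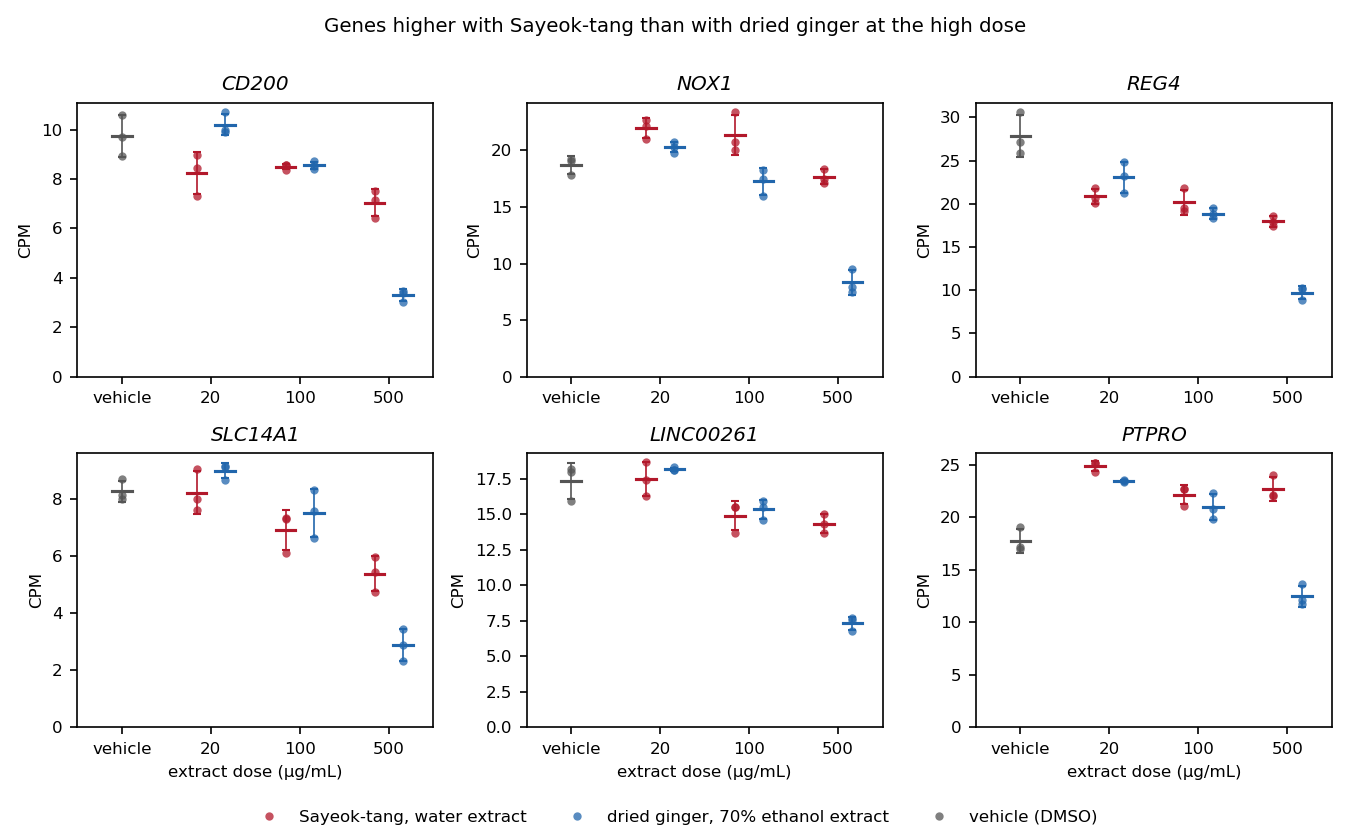
CPM of 6 genes in each library by dose, with Sayeok-tang in red, dried ginger in blue and vehicle in grey; bars give mean and SD of 3 libraries. The 3 dried ginger libraries at 500 µg/mL lie below the 3 Sayeok-tang libraries in all 6 genes, and none of the 6 passed the test between the extracts at 20 µg/mL.

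Of 14 tested secretory cell markers 4 were higher with Sayeok-tang (0.776% of all genes were) and none lower at the high dose (median log2 fold change 0.28). At an unadjusted p below 0.05, 1 was lower. In dried ginger 4 fell with dose (2.04% of all genes fell) and 1, TFF2, rose by 1.03 ± 0.29 (2.3% rose). DESeq2 called 4 falls and 0 rises there. With the formula edgeR called 0 of the 14 with dose (2 had an unadjusted p below 0.05, and DESeq2 called 0). REG4, a lectin of secretory cells, stood at 18.6, 17.4 and 17.9 CPM with Sayeok-tang and at 10.2, 8.85 and 10.1 CPM with dried ginger (0.88 ± 0.09, adjusted p = 5.0e-09, edgeR). MUC13, a membrane mucin, differed by 0.36 ± 0.07, and AGR2, which folds mucins, by 0.42 ± 0.09. ATOH1, the transcription factor that specifies secretory cells, stood at 4.08, 3.59 and 3.79 CPM with the formula and at 1.80, 2.62 and 2.04 CPM with ginger (0.82 ± 0.20, adjusted p = 0.0112, edgeR), and lost its call without Sayeok-tang replicate 1 or dried ginger replicate 1 or 3. Fewer cells of a secretory kind and less RNA per cell cannot be told apart in bulk RNA. Of 17 p53 targets 2 were higher, BTG2 (0.48 ± 0.08) and SESN1 (0.43 ± 0.08), and of 16 tight junction genes 1, CLDN1 (0.33 ± 0.07). Over all genes 0.776% were higher, and the medians of these 2 lists were 0.03 and 0.01. At an unadjusted p below 0.05, 2 p53 targets and 1 tight junction gene were lower.

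Some genes changed with dose in the same direction in the 2 extracts, by similar or by unlike amounts. From the low to the high dose, 15 of the 16 genes that rose with Sayeok-tang also rose with dried ginger (93.8% of the 16, 3.90% of the 385). With dried ginger 2.3% of all genes rose and 2.04% fell. Of the 48 that fell with Sayeok-tang, 25 also fell with dried ginger (52.1%, 7.31% of the 342). These overlaps count direction only, and AKR1C2, among the 15, rose by 0.57 with Sayeok-tang and by 3.17 with dried ginger. ADH6, an alcohol dehydrogenase, stood at 3.06, 3.24 and 3.24 CPM with Sayeok-tang and at 3.05, 3.25 and 3.28 CPM with dried ginger at the high dose, a difference of 0.00 ± 0.12. It fell with dose by 0.74 ± 0.11 with the formula and by 0.78 ± 0.11 with ginger (adjusted p = 4.2e-04 and 3.1e-06, edgeR).

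Interferon-stimulated genes gave another pattern over dose. Of 31 tested none was called by edgeR at the high dose (2 had an unadjusted p below 0.05 in each direction, and DESeq2 called 0). At the low dose both methods also called none, with a median log2 fold change of 0.32. There 16 had an unadjusted p below 0.05, all higher with Sayeok-tang, against 225 higher of all 16763 genes. At the medium dose 8 were higher with Sayeok-tang (0.221% of all genes). In the second pair 9 were higher with Bojungikgi-tang than with fresh ginger at the high dose (0.262% of all genes). OAS2, an antiviral enzyme, stood at 7.36, 5.73 and 6.80 CPM with Sayeok-tang and at 7.17, 8.80 and 5.47 CPM with dried ginger at the high dose, where the groups overlapped (-0.11 ± 0.21). At the medium dose the log2 fold change was 1.20 ± 0.20 (adjusted p = 5.6e-04, edgeR). With Sayeok-tang 7 of the 31 fell from the low to the high dose (0.286% of all genes fell). Among them were OAS2, by 0.93 ± 0.20, and MX1, an antiviral GTPase, by 0.77 ± 0.16 (adjusted p = 0.022 and 0.0106, edgeR). The difference between the high-dose and the low-dose contrast was called for none of the 31 by edgeR, where 10 had an unadjusted p below 0.05, all of them more negative at the high dose, and DESeq2 called 1.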

How the data were processed

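The authors deposited expected counts per gene, estimated with RSEM 1.3.3 after trimming with Trim Galore 0.6.5 and alignment with STAR 2.7.3a to hg38, per the submitters' processing notes. Libraries were directional, per the labels' protocols, and the sources used here do not state the strand setting of the counting. Expected counts were rounded to whole numbers (90.0 to 92.1% already were), and 210 columns that match no sample here were not used. Totals were 18016457 to 35819900 counts over 60 libraries.

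edgeR 4.0.16 was fitted to 54 libraries in 19 groups (TMM scaling, filterByExpr, 16763 genes, glmQLFit with robust estimation, glmQLFTest), with Benjamini-Hochberg adjustment over all genes tested and a threshold of 0.05. CPM use TMM-scaled library sizes, and an SE is the absolute log2 fold change divided by the square root of F. Each pair of the 6 libraries differed by more than sampling noise in a chi-square test over genes. Symbols and positions are from GENCODE 29 (57055 of 60675 identifiers). Named genes are the 10 largest called changes each way at the high dose, the 5 largest each way in the change with dose, at the low dose and in the second pair (average log2 CPM above 2), up to 4 members of each list by smallest p, and a panel of genes. The members and lists were chosen with earlier results of these data known. Alternatives were DESeq2 1.42.0, its size factors, no low-count filter, a fit of the compared libraries alone, a replicate block, a fit leaving out 3 libraries of other groups with a high mitochondrial or ribosomal share, and leaving out each library. The test was also run on counts simulated from the fitted means and spread of the same model, with planted changes. That run cannot show how the test behaves on libraries that depart from the model. Some genes are not reported here.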

Additional observations from a re-analysis of the deposited data

Results flagged for a closer look

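The change from the low to the high dose differed between Sayeok-tang and dried ginger for 110 genes (edgeR test of the difference itself, adjusted p below 0.05). The 10 genes named here had the largest differences among called genes with an average log2 CPM above 2. Each kept the call with any 1 of the libraries left out. The difference, Sayeok-tang change minus dried ginger change on the log2 scale, was 1.40 for CD200, 1.03 for LINC00261, 1.03 for SLC14A1, 1.03 for REG4 and 0.97 for NOX1. It was -2.60 for AKR1C2, -2.07 for AKR1C1, -1.51 for IGFL2-AS1, -1.36 for ABCG1 and -1.34 for AKR1B10. Each extract's doses share a solvent and a code set.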

How the results depend on the processing

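Of 79 named genes called at the high dose, 64 kept the call with each library left out and 68 under each of the other alternatives, and none reversed. The 11 lost under other alternatives were lost without the low-count filter. Without that filter the count of genes was 146 at the medium dose, 99 at the low dose, 168 for the difference in change with dose, 124 for Sayeok-tang high against low, 1016 for Sayeok-tang against vehicle and 137 for the second pair. Without the 3 libraries of other groups that stand apart it was 1148 at the high dose, 108 at the medium dose, 388 for the difference in change with dose, 361 and 1795 for the dose changes of Sayeok-tang and dried ginger, 1368 and 3509 for these extracts against vehicle, and 150 for the second pair. In fits of the compared libraries alone it was 1135 at the high dose, 42 at the low dose, 437 for the difference in change with dose, 519 and 1832 for the dose changes, and 127 for the second pair. DESeq2 called 720 genes for Sayeok-tang against vehicle. The causes were not tested.

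With each library left out in turn the count was 269 to 306 at the high dose, 23 to 40 at the medium dose, 14 to 17 at the low dose, 79 to 95 for the difference in change with dose, 19 to 27 for Sayeok-tang high against low, 488 to 551 for dried ginger high against low, 140 to 645 and 935 to 2446 for Sayeok-tang and dried ginger against vehicle, and 29 to 39 for the second pair. Groups left with 2 libraries, or 1 for Bojungikgi-tang, share the spread of the other groups. Cholesterol genes higher at the high dose numbered 1, against 11 without the libraries that stand apart and 13 in the 6 libraries alone. Same-numbered libraries did not deviate together (correlations of -0.065 to 0.051 over 23 pairs), and a replicate block gave 397 genes at the high dose, 36 at the medium dose, 17 at the low dose and 110 for the difference in change with dose. At 18 to 26 counts for 1 CPM, differences of genes below 1 CPM rest on few counts.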

Other observations

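Several other gene groups had no member called between Sayeok-tang and dried ginger at 500 µg/mL in the edgeR test over the 54 libraries. None of 17 genes of MHC class I presentation, 32 ribosomal proteins, 13 mitochondrial transcripts, 10 glucocorticoid receptor targets, 10 EGFR ligands and receptors or 9 metallothionein and zinc genes was called. At an unadjusted p below 0.05 there were 1, 0, 0, 1, 3 and 2 of them in this order, and DESeq2 called 0. The metallothionein and zinc genes had a median log2 fold change of 0.41, against 0.00 for all genes, and MT1X, MT1E, MT1F and MT2A stood at 0.59, 0.38, 0.72 and 0.47. In fits without the low-count filter, without the 3 libraries that stand apart or of the 6 libraries alone, up to 2 metallothionein and zinc genes, 2 EGFR ligands and receptors and 1 ribosomal protein were called higher, and up to 1 glucocorticoid receptor target, 1 EGFR gene and 1 mitochondrial transcript lower.

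Amino acid transporters went both ways, with 2 of 14 higher and 2 lower. For these and the groups that follow, the shares over all genes were 0.776% higher and 1.59% lower. SLC6A20, an imino acid transporter, and SLC43A2, a transporter of large neutral amino acids, were higher with Sayeok-tang (log2 fold change 0.36 and 0.35). The call of SLC6A20 was lost without the low-count filter, and that of SLC43A2 without Sayeok-tang replicate 2 or 3 or dried ginger replicate 2 or 3 (0.31 to 0.34). SLC6A9, the glycine transporter, and SLC1A4, which carries alanine, serine and cysteine, were lower (-1.42 and -0.70). Of 25 hypoxia and glycolysis genes, VEGFA, the vascular growth factor, was lower (-0.41) and CA9, a carbonic anhydrase, higher (0.44), a call lost with any of the 6 libraries left out except dried ginger replicate 3 (0.40 to 0.46). Among immediate early and MAPK feedback genes the phosphatase gene DUSP5 and PHLDA1 were lower, of 19 tested, by -0.54 and -0.20. The first call was lost without Sayeok-tang replicate 1 or dried ginger replicate 2 (-0.45 and -0.46), and the second with each of the 6 libraries left out. One of 14 Wnt and stem cell genes was higher, EPHB3, which guides cells along the crypt, and it lost the call without Sayeok-tang replicate 3 (log2 fold change 0.40) or dried ginger replicate 3 (0.43).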
